A study of Homo sapiens with 8 samples.

Results

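Interferon-stimulated genes are described here across all 8 libraries of a pull-down RNA experiment in human leukaemia cells. The 43 members are a listed set, found by matching the Ensembl identifiers of the count table to gene symbols, out of 63140 genes in the table. Of the 43, 41 passed the filter on low counts and were tested, GBP1 had 0 counts in every library, and IFIT5 had 12 counts in 1 AAVS1 KO library and 0 in the other libraries.

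The RNA came from chromatin isolation by RNA purification (ChIRP), in which fixed and sonicated lysate is hybridised with biotinylated probes and what is captured on streptavidin beads is sequenced. MOLM13 and OCI-AML4 are established acute myeloid leukaemia cell lines, and all cells had been nucleofected with an editor and a guide RNA and were collected on day 3 after editing. The AAVS1 KO group (genotype given as wild type) received Cas9 ribonucleoprotein aimed at AAVS1, an intronic site of the gene PPP1R12C that serves as the editing control, and the HOTSCRAMBL KO group received Cas9 ribonucleoprotein aimed at the long non-coding RNA HOTSCRAMBL. The AAVS1 CBE group (genotype also given as wild type) and the HOTSCRAMBL CBE group received a base editor that changes cytosine to thymine while leaving the double strand uncut, with guides to the same targets. Each group held 2 libraries, of which replicate 1 is labelled MOLM13 and replicate 2 OCI-AML4. Whether they come from 2 different lines was not tested, so agreement of replicates is not read as agreement between lines. The labels describe no clones, and neither the share of edited alleles nor the RNA that the probes bind is given in the sources used here. No library is described as input, so the values are amounts of RNA in a pull-down. In such bulk samples, fewer cells of a type and less RNA per cell cannot be told apart.

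Library totals ran from 20548300 to 37970163 counts. HOTSCRAMBL is the name of 0 genes in the table, so its level is not analysed here. All 17 myeloid markers examined had counts in at least 1 library, with a summed level of 4282 to 5099 CPM per library, where CPM is the read count scaled to library size with TMM factors. The T cell markers CD3E and CD2, the plasmacytoid dendritic cell markers CLEC4C and GZMB and the erythroid markers HBB and HBA2 stood at 0 in all 8 libraries. The 6 T cell markers summed to 4.24 to 6.06 CPM in AAVS1 CBE, 9.72 to 12.5 CPM in HOTSCRAMBL CBE, 2.16 to 2.74 CPM in AAVS1 KO and 1.52 to 7.86 CPM in HOTSCRAMBL KO. The whole list of 4 plasmacytoid dendritic cell markers summed to 15.4 to 20.2 CPM in AAVS1 CBE, 27.7 to 34.8 CPM in HOTSCRAMBL CBE, 15.4 to 16.6 CPM in AAVS1 KO and 11.6 to 19.1 CPM in HOTSCRAMBL KO, nearly all of it from TCF4 and the rest from LILRA4. The part of either list in the members' values was not tested.

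Interferons are secreted by cells that sense foreign or misplaced nucleic acid. Type I interferon binds the receptor chains IFNAR1 and IFNAR2, whose kinases JAK1 and TYK2 phosphorylate STAT proteins. STAT2 with a partner STAT and IRF9 then forms a complex that binds the interferon-stimulated response element in the promoters of many antiviral genes. Their products degrade or sequester viral RNA, block viral entry and budding, and feed back on the pathway, and myeloid cells keep a part of this set on at rest.

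Promoters of members raised in the base-edited cells are shown here, chosen from those that carried the core of that element. The windows run from 250 bases before to 50 bases after the start site and come from RefSeq (GRCh38.p14). Capitals mark matches to GAAANNGAA on either strand, and a match on the opposite strand is printed as its reverse complement. The windows lie at chr1:78620198-78620497 on the plus strand for IFI44L, chr1:27672143-27672442 on the minus strand for IFI6, chr21:41420308-41420607 on the plus strand for MX1, chr12:112938224-112938523 on the plus strand for OAS3 and chr10:89332279-89332578 on the plus strand for IFIT3.
IFI44L: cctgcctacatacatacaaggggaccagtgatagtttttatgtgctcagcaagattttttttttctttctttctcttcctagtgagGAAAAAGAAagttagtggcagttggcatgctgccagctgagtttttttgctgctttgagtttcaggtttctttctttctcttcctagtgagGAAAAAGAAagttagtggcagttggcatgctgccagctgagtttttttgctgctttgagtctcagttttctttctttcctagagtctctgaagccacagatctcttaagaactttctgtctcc
IFI6: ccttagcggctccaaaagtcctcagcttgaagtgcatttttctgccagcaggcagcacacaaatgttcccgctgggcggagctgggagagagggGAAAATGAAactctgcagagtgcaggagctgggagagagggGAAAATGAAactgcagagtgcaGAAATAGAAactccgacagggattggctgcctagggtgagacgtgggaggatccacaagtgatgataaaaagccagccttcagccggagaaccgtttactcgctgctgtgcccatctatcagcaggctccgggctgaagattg
MX1: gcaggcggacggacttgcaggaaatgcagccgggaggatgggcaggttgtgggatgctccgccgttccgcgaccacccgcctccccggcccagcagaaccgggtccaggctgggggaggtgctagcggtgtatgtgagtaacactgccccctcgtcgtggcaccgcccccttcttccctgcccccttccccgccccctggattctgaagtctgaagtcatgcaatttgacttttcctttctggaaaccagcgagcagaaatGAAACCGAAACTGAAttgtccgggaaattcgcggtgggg
OAS3: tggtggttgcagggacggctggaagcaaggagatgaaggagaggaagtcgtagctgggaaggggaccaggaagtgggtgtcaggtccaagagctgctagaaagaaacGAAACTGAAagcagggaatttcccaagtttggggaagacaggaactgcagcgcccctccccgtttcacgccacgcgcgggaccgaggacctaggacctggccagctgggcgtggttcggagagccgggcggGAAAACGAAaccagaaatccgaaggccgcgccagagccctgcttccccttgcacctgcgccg
IFIT3: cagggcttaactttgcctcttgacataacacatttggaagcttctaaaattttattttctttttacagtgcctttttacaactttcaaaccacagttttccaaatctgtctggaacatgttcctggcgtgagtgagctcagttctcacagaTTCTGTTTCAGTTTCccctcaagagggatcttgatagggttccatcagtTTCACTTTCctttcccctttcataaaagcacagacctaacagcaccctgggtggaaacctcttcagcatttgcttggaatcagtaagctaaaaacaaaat

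In IFI44L the same 9 letters stood at 2 places, beginning 164 and 73 bases before the start site. IFI6 held 3 matches, beginning 156, 115 and 93 bases before it. The 2 matches of MX1 shared 3 letters and lay after the start site, beginning at bases 12 and 18. OAS3 held matches beginning 143 and 12 bases before its start site. IFIT3 held 3 on the opposite strand, with first bases at 99, 93 and 50 before the start site, and the earlier 2 overlapped.

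A window was found for 34 of the 43 members, and 25 of those 34 (73.5%) held GAAANNGAA, against 2693 of 27305 genes with a window (9.9%). The core of the gamma-activated site, TTCNNNGAA, which reads the same on both strands, was found in 10 of the 34 (29.4%), against 9.4% of all genes with a window. Of the 9 members that rose in the base-edited cells, 7 had a window and 5 of these held GAAANNGAA, while those of OAS1 and XAF1 did not. SAMHD1 and XAF1, the members called in the knockout that had a window, held no match. Among the 27 other members with a window, 20 held GAAANNGAA, so most members held it whether or not they rose.

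Per kilobase of annotated exon, the members spanned a wide range of levels. BST2 (tetherin, which holds budding virions on the cell surface) stood highest, with a mean of 37.6 CPM per kb over the 8 libraries. SAMHD1 followed at 29.8, XAF1 at 19.4, IRF7 at 19.0 and STAT2 at 16.9 CPM per kb. The classical antiviral effectors lay far lower: MX1 averaged 0.21, OAS3 0.219, OAS1 0.205 and IFIT1 0.122 CPM per kb. The order among XAF1, IRF7 and STAT2 rests on small gaps between means and was not tested.

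**Figure D1:**
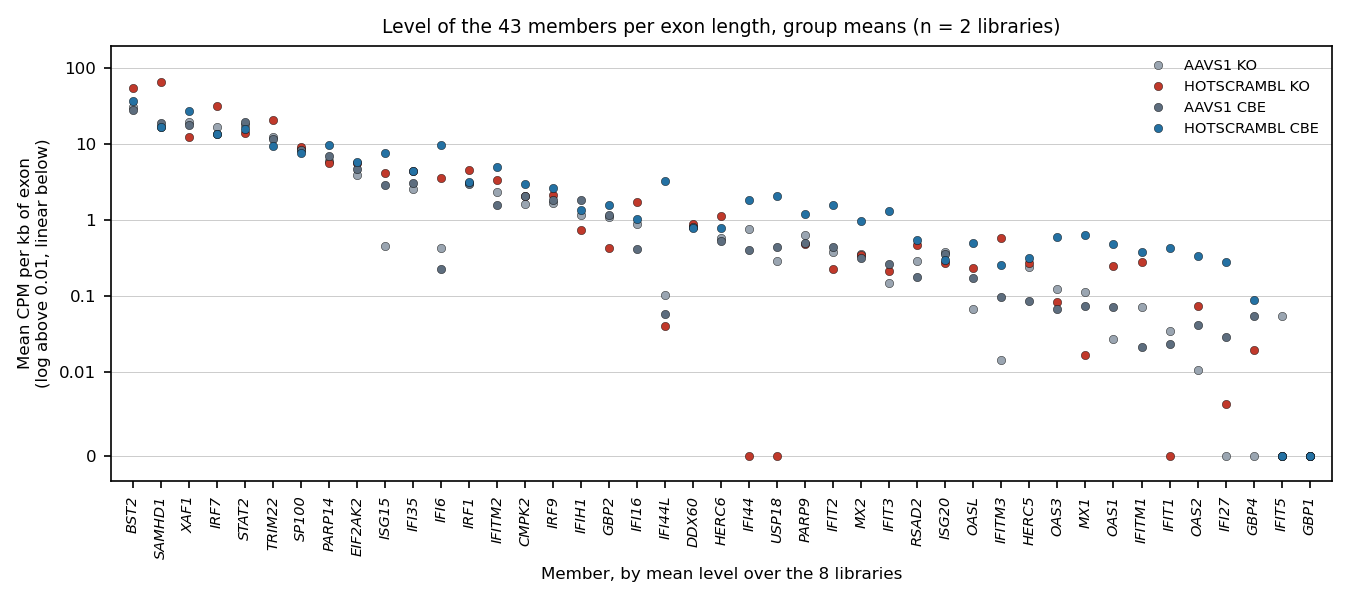
Mean level of each of the 43 members in CPM per kilobase of exon (vertical axis, logarithmic above 0.01 and linear below), 1 point per group of 2 libraries, with members ordered from left to right by their mean over the 8 libraries. BST2, SAMHD1, XAF1, IRF7 and STAT2 stand highest, and the HOTSCRAMBL CBE points of IFI44L, IFI6, MX1 and OAS3 stand above those of the other groups.

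With the base editor, 9 members rose and 0 fell in HOTSCRAMBL CBE against AAVS1 CBE (edgeR quasi-likelihood F-test, Benjamini-Hochberg adjusted over 24057 genes, the test behind every call given without another tool's name). They were IFI44L, IFI6, MX1, OAS3, OAS1, IFIT3, USP18, MX2 and XAF1. Rises ran from a log2 fold change of 0.58 for XAF1, which was already abundant, to 5.76 for IFI44L, which was near its floor in the controls. Over all genes tested, 8.83% were called in this comparison, 4.56% higher and 4.27% lower. The median log2 fold change of the 41 tested members was 1.31, beside −0.02 over all genes tested. IFIT1 (4.26) and IFI27 (3.10) passed the filter only through their HOTSCRAMBL CBE counts, so they could enter only as rises. The same holds for IFITM1 (4.10), which outside HOTSCRAMBL CBE reached the filter's level in HOTSCRAMBL KO replicate 1 alone. IFIT1, IFI27 and IFITM1 count in this median and in the ranges given next. At a minimum count of 50, 35 members were tested and their median was 0.61. Both HOTSCRAMBL CBE libraries lay above both AAVS1 CBE libraries in 27 of the 41 (65.9%), beside 22.7% of all genes tested, and below both in 2 (4.88%), beside 23.7%. Most of the 9 started low: their mean in AAVS1 CBE ran from 0.212 to 119 CPM with a median of 1.30, beside a median of 2.79 CPM for the other 34 members. Without a scaling factor, 8 members were called higher and 2, STAT2 and TRIM22, lower, at a median shift of −0.15 over all genes. The count fell to 1 without AAVS1 CBE replicate 1, to 2 without replicate 2 of that group, and to 3 without either HOTSCRAMBL CBE library. DESeq2 also called 9, with IFITM2 and PARP14 in place of OAS3 and MX2. Shares over all genes are given for the main edgeR fit only, so counts by other tools and settings have no background beside them. Of 16 tested myeloid markers, 4 (25.0%) were called in the same comparison: PTPRC, MEIS1 and CEBPA were higher (0.67, 0.63 and 0.61) and CSF3R was lower (−0.38).

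With Cas9, 3 members rose and 1 fell in HOTSCRAMBL KO against AAVS1 KO. SAMHD1, IRF7 and TRIM22 were higher and XAF1 was lower, with log2 fold changes of 1.98, 0.96, 0.78 and −0.66. Over all genes tested, 8.76% were called, 4.51% higher and 4.25% lower, so the members' share of 9.76% was near the background. Both HOTSCRAMBL KO libraries lay above both AAVS1 KO libraries in 12 of the 41 members (29.3%), beside 21.0% of all genes tested, and below both in 8 (19.5%), beside 23.8%. The median log2 fold change of the members was 0.51, beside −0.01 over all genes tested. It was 0.44 over 40 members when groups without counts were set at a floor of 3 counts. The median fell to 0.14 without HOTSCRAMBL KO replicate 2, and the count of calls fell to 1 without AAVS1 KO replicate 2. DESeq2 called 16 members in this comparison, 10 higher and 6 lower. Its share over all genes is not given here, so this count cannot be set against a background. To the edgeR calls it added BST2, EIF2AK2, IFI6, IFITM3, IRF1, ISG15 and OAS1 as higher and GBP2, IFI44, MX1, STAT2 and USP18 as lower. Myeloid markers moved in both directions in the same comparison, with 7 of the 16 tested called (43.8%, beside 8.76% of all genes). LYZ (2.20), CEBPA (1.00), CSF1R (0.69) and PRTN3 (0.46) were higher, and AZU1 (−0.89), MEIS1 (−0.67) and ELANE (−0.57) were lower on the log2 scale. The part of these shifts in the members' values was not tested with either editor.

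**Figure D2:**
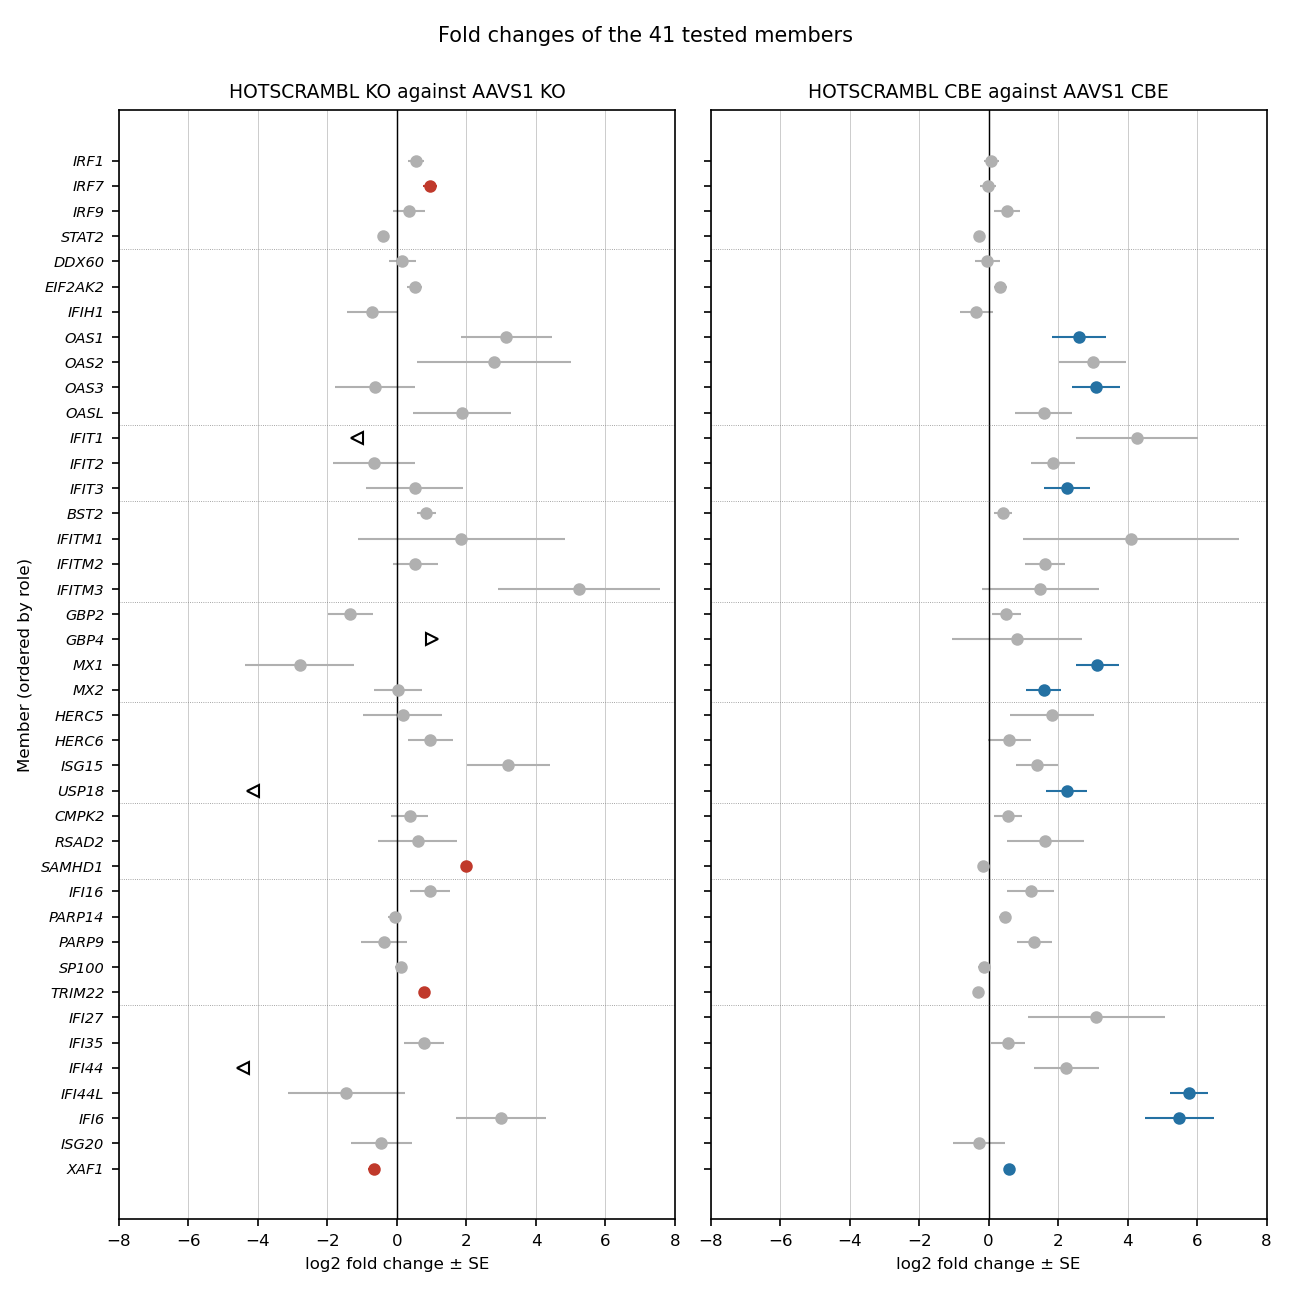
Log2 fold change of each tested member (horizontal axis, points with bars of 1 standard error) in HOTSCRAMBL KO against AAVS1 KO and in HOTSCRAMBL CBE against AAVS1 CBE, ordered by role, with called members in colour and the others in grey. Open triangles mark folds at a floor of 3 counts where a group had 0 counts. IFI27 has no fold in the knockout panel because both groups were at or under 3 counts. The called members of the base-editing panel all lie to the right of 0.

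Among the transcription factors that carry or amplify the interferon signal, IRF7 rose in the knockout. IRF7 (ENSG00000185507, chromosome 11, 612553 to 615983) drives further interferon production. It stood at 45.8 and 40.8 CPM in AAVS1 KO, at 85.0 and 83.3 CPM in HOTSCRAMBL KO, at 32.6 and 39.0 CPM in AAVS1 CBE and at 33.0 and 37.6 CPM in HOTSCRAMBL CBE. The HOTSCRAMBL KO pair stood well above the other 6 libraries, and the base-editing groups overlapped. Its log2 fold change was 0.96 (SE 0.206, adjusted p = 0.00261) with the knockout and −0.02 (SE 0.225, adjusted p = 0.971) with base editing. The knockout call was lost without AAVS1 KO replicate 2 (0.82, adjusted p = 0.129) and without HOTSCRAMBL KO replicate 1 (0.89, adjusted p = 0.0758).

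STAT2 and its partner IRF9 passed the edgeR threshold in neither comparison. STAT2 (ENSG00000170581, chromosome 12, 56341597 to 56360203) stood at 193 and 145 CPM in AAVS1 KO, 156 and 104 CPM in HOTSCRAMBL KO, 187 and 174 CPM in AAVS1 CBE, and 168 and 130.0 CPM in HOTSCRAMBL CBE. The knockout groups overlapped, while both HOTSCRAMBL CBE libraries lay below both of their controls. The log2 fold changes were −0.39 (adjusted p = 0.106) and −0.28 (adjusted p = 0.227), and both were called lower without a scaling factor, at −0.54 and −0.42. DESeq2 called STAT2 lower with the knockout (−0.37, adjusted p = 0.035). IRF9 gave 0.35 and 0.53 with overlapping groups in both comparisons. IRF1, a factor also induced by type II interferon, gave 0.55 (adjusted p = 0.154) with the knockout and 0.08 with base editing.

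The sensors and effectors of double-stranded RNA held 7 members, of which 2 rose with base editing and 0 were called with the knockout by edgeR, while DESeq2 called 2 higher with the knockout, OAS1 and EIF2AK2. OAS1, OAS2 and OAS3 make the messenger that activates RNase L, and they lie side by side on chromosome 12, where ENSG00000257452 overlaps all 3. OAS3 (ENSG00000111331, 112938051 to 112976460) stood at 2.22 and 0.212 CPM in AAVS1 CBE and 13.7 and 8.03 CPM in HOTSCRAMBL CBE. In AAVS1 KO it stood at 1.57 and 2.88 CPM, and in HOTSCRAMBL KO at 3.01 and 0 CPM. Both base-edited libraries were above every other library, and the knockout groups overlapped. Base editing gave OAS3 a log2 fold change of 3.09 (SE 0.681, adjusted p = 0.00292). With the knockout it was −0.63 (adjusted p = 0.811), and it turned to 0.13 without HOTSCRAMBL KO replicate 2, the library at 0, and to 0.36 without AAVS1 KO replicate 2.

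OAS1 (ENSG00000089127, 112905856 to 112933219) stood at 1.62 and 0.212 CPM in AAVS1 CBE, which are 54 and 6 counts, and at 4.07 and 8.35 CPM in HOTSCRAMBL CBE. It stood at 0.549 and 0.16 CPM in AAVS1 KO and at 3.32 and 3.13 CPM in HOTSCRAMBL KO. Both HOTSCRAMBL groups lay above their controls without overlap. OAS1 differed by 2.60 on the log2 scale (SE 0.787, adjusted p = 0.0351) with base editing and 3.15 (SE 1.32, adjusted p = 0.162) with the knockout. OAS2 showed the same order at fewer counts, with 2.99 (adjusted p = 0.0507) and 2.80 (adjusted p = 0.534). Of the base-editing calls, that of OAS1 was lost when any of the 8 libraries was left out, with values of 5.09 without AAVS1 CBE replicate 1 and 1.55 without replicate 2 of that group. The OAS1 call was also lost by limma-voom, by the earlier edgeR estimator and with the 4 libraries of the contrast alone. It was kept under 6 of 17 alternatives. That of OAS3 was lost when any of its own 4 libraries was left out (2.60 to 5.25, adjusted p from 0.0525 to 0.184), by DESeq2 (adjusted p = 0.181) and by limma-voom (adjusted p = 0.113).

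The 4 other members of this group were not called by edgeR. OASL, which lacks the synthase activity of its relatives, gave 1.58 with base editing and 1.86 with the knockout, at adjusted p of 0.292 and 0.515. EIF2AK2 (PKR, the kinase that halts translation on double-stranded RNA) gave 0.34 and 0.51, with both HOTSCRAMBL libraries above both controls under each editor, and it was called with the knockout by DESeq2. IFIH1 (MDA5, a sensor of long double-stranded RNA) gave −0.35 and −0.71, and DDX60 gave −0.04 and 0.15.

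IFIT proteins bind foreign RNA ends and block its translation, and 1 of the 3 tested rose with base editing. IFIT3 (ENSG00000119917, chromosome 10, 89327307 to 89377473) stood at 2.49 and 0.141 CPM in AAVS1 CBE and 8.15 and 5.20 CPM in HOTSCRAMBL CBE. In AAVS1 KO it stood at 1.02 and 0.48 CPM, and in HOTSCRAMBL KO at 1.53 and 0.626 CPM. The base-edited pair was highest of all 8, and the 2 AAVS1 CBE libraries differed widely, at 83 and 4 counts. IFIT3 differed by 2.26 on the log2 scale (SE 0.659, adjusted p = 0.0269) with base editing and 0.51 (SE 1.40, adjusted p = 0.883) with the knockout.

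IFIT1 was at 0 in AAVS1 CBE replicate 1 and at 0.212 CPM in replicate 2, against 1.44 and 2.52 CPM in HOTSCRAMBL CBE, with a log2 fold change of 4.26 (SE 1.76, adjusted p = 0.154). IFIT2 gave 1.86 (SE 0.637, adjusted p = 0.0698), again with both edited libraries above both controls. Summed over the 4 IFIT genes, the level was 2.97 to 3.63 CPM in AAVS1 CBE and 14.3 to 16.5 CPM in HOTSCRAMBL CBE. In the knockout comparison the sum was 2.67 to 2.88 CPM in AAVS1 KO and 1.63 to 2.50 CPM in HOTSCRAMBL KO. The call of IFIT3 was lost when any of the 4 base-editing libraries or either AAVS1 KO library was left out, with a value of 5.08 without AAVS1 CBE replicate 1. It was also lost by limma-voom, by the earlier edgeR estimator and with the 4 libraries of the contrast alone, and was kept under 8 of 17 alternatives.

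The GTPases MX1 and MX2, which trap viral nucleocapsids, both rose with base editing. MX1 (ENSG00000157601, chromosome 21, 41420020 to 41470071) stood at 1.11 and 1.48 CPM in AAVS1 CBE and at 9.34 and 13.7 CPM in HOTSCRAMBL CBE. It stood at 2.39 and 1.60 CPM in AAVS1 KO and at 0.51 and 0.0894 CPM in HOTSCRAMBL KO, the latter being 10 and 2 counts. The base-edited pair was above all other libraries, and the knockout pair was below them all. MX1 gave a log2 fold change of 3.13 (SE 0.613, adjusted p = 8.54e-04) with base editing and −2.80 (SE 1.56, adjusted p = 0.334) with the knockout, which DESeq2 called (−2.77, adjusted p = 0.00823). MX1 overlaps TMPRSS2, and its call was lost without AAVS1 CBE replicate 1 (3.10, adjusted p = 0.066) and without replicate 2 of that group (3.17, adjusted p = 0.0548).

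MX2 (ENSG00000183486, chromosome 21, 41361999 to 41409393) lies beside MX1. It stood at 6.51 and 2.54 CPM in AAVS1 CBE, at 13 and 15.2 CPM in HOTSCRAMBL CBE, at 3.33 and 6.96 CPM in AAVS1 KO and at 2.14 and 8.05 CPM in HOTSCRAMBL KO. The base-edited libraries were highest, and the knockout groups overlapped. With base editing the log2 fold change was 1.58 (SE 0.491, adjusted p = 0.0424), and the call was lost when any library was left out (0.79 without AAVS1 CBE replicate 2 and 2.79 without replicate 1 of that group, adjusted p = 0.641 and 0.058). It was also lost without the term for the labelled line (adjusted p = 0.0527), without a scaling factor (0.0631) and by DESeq2 (0.124), and was kept under 4 of 17 alternatives. With the knockout it was 0.03 (SE 0.690, adjusted p = 0.992), a value whose sign changed between settings. Among the guanylate-binding proteins, which attack the vacuoles of intracellular pathogens, GBP2 gave 0.51 with base editing and −1.34 (adjusted p = 0.255) with the knockout. GBP4 never exceeded 0.831 CPM.

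ISG15 is a ubiquitin-like modifier, HERC5 and HERC6 are ligases of its family, and USP18 removes it and also restrains the receptor. USP18 (ENSG00000184979, chromosome 22, 18149843 to 18177397) was called. It stood at 1.92 and 1.91 CPM in AAVS1 CBE and at 8.06 and 10.4 CPM in HOTSCRAMBL CBE. It stood at 1.14 and 1.36 CPM in AAVS1 KO, which are 29 and 34 counts, and at 0 in both HOTSCRAMBL KO libraries. The base-edited pair was highest of all 8 libraries and the knockout pair lowest. The log2 fold change with base editing was 2.25 (SE 0.585, adjusted p = 0.0131), and the call was lost when any of its own 4 libraries was left out. That call was also lost by limma-voom, by the earlier edgeR estimator and with the 4 libraries of the contrast alone, and was kept under 10 of 17 alternatives. In HOTSCRAMBL KO, USP18 was 17.5-fold lower when its 0 counts were set at a floor of 3 counts over the group. Because both reads of a pair were counted, that floor can stand for fewer than 3 read pairs, so the fold is no strict bound. The edgeR test gave adjusted p = 0.282, while DESeq2 gave 1.34e-04 and the earlier edgeR estimator 4.77e-04. USP18 has a near-identical copy, USP41, with which reads could have been lost.

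ISG15 itself stood at 2.40 and 2.54 CPM in AAVS1 CBE and at 4.71 and 8.58 CPM in HOTSCRAMBL CBE. It stood at 0.549 and 0.24 CPM in AAVS1 KO and at 2.09 and 5.23 CPM in HOTSCRAMBL KO. Both HOTSCRAMBL groups lay above their own controls, but the HOTSCRAMBL KO range reached down to below the AAVS1 CBE libraries. The log2 fold changes were 1.39 (SE 0.594, adjusted p = 0.172) with base editing and 3.20 (SE 1.19, adjusted p = 0.101) with the knockout. HERC5 gave 1.82 and HERC6 0.60 with base editing, and neither was called.

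The nucleotide enzymes include SAMHD1, which degrades deoxynucleotides and rose in the knockout. SAMHD1 (ENSG00000101347, chromosome 20, 36890229 to 36951893) stood at 192 and 176 CPM in AAVS1 KO and at 731 and 714 CPM in HOTSCRAMBL KO. It stood at 198 and 209 CPM in AAVS1 CBE and at 189 and 178 CPM in HOTSCRAMBL CBE. The knockout libraries stood far above the other 6, which lay close together, with the HOTSCRAMBL CBE pair spanning 178 to 189 CPM below its controls. On the log2 scale SAMHD1 rose by 1.98 (SE 0.110, adjusted p = 5.03e-13) with the knockout and gave −0.15 (SE 0.112, adjusted p = 0.522) with base editing. The knockout call was kept under all 17 alternatives, with log2 fold changes of 1.82 to 2.04. RSAD2 (viperin) and CMPK2, which are neighbours whose annotations overlap, gave 0.60 and 0.37 with the knockout and 1.63 and 0.55 with base editing, each with overlapping groups.

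Among the nuclear and chromatin proteins, TRIM22, a ubiquitin ligase that restricts viral transcription, rose in the knockout. TRIM22 (ENSG00000132274, chromosome 11, 5689610 to 5737089) stood at 190.3 and 123 CPM in AAVS1 KO and at 269 and 258 CPM in HOTSCRAMBL KO. It stood at 165 and 129 CPM in AAVS1 CBE and at 136 and 99.2 CPM in HOTSCRAMBL CBE. The knockout libraries were the highest, and the base-editing groups overlapped. On the log2 scale TRIM22 rose by 0.78 (SE 0.139, adjusted p = 3.36e-04) with the knockout and gave −0.32 (SE 0.142, adjusted p = 0.193) with base editing. The knockout call was lost without AAVS1 KO replicate 2 (0.62, adjusted p = 0.0789) and without HOTSCRAMBL KO replicate 2 (0.56, adjusted p = 0.0672). TRIM22 overlaps its relative TRIM5, and strand was not used in the counting.

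PARP14, PARP9, SP100 and IFI16 were not called by edgeR, and DESeq2 called PARP14 higher with base editing. PARP14, an ADP-ribosyltransferase, gave 0.47 (SE 0.165, adjusted p = 0.0805) with base editing, where both edited libraries were above both controls, and −0.07 with the knockout. Its relative PARP9 gave 1.31 (SE 0.504, adjusted p = 0.117) and −0.37. IFI16, a nuclear DNA sensor, gave 1.21 and 0.95, with both HOTSCRAMBL libraries above both controls under each editor. SP100, a scaffold of nuclear bodies, gave −0.14 and 0.12.

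Small membrane proteins of the IFITM family hinder the fusion of viruses with endosomes, and edgeR called 0 of IFITM1, IFITM2 and IFITM3. DESeq2 called IFITM2 with base editing and IFITM3 with the knockout, both higher. IFITM2 gave 1.62 (SE 0.581, adjusted p = 0.0868) with base editing, and IFITM1 and IFITM3 stood at or below 2.28 CPM in every library. The 3 genes are alike in sequence and lie together on chromosome 11, so their counts are uncertain. BST2 (ENSG00000130303, chromosome 19, 17402939 to 17405630) stood at 27.4 and 39.9 CPM in AAVS1 KO, 34.7 and 85.9 CPM in HOTSCRAMBL KO, 27.6 and 35.0 CPM in AAVS1 CBE, and 42.0 and 38.9 CPM in HOTSCRAMBL CBE. The knockout groups overlapped, with HOTSCRAMBL KO replicate 2 far above the rest. The log2 fold change with the knockout was 0.84 (SE 0.271, adjusted p = 0.0528), and it was called under 6 of 17 alternatives: without HOTSCRAMBL KO replicate 1 (1.24, adjusted p = 0.0187), by DESeq2 (0.80, adjusted p = 0.0337), with DESeq2 size factors, with either other filter and by the earlier estimator. Without HOTSCRAMBL KO replicate 2 it was 0.16. With base editing BST2 gave 0.42 (adjusted p = 0.417).

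The remaining 7 members held the largest rises with base editing. IFI44L (ENSG00000137959, chromosome 1, 78619902 to 78646145), a feedback regulator of interferon responses, stood at 0.90 and 0.424 CPM in AAVS1 CBE and at 35.8 and 38.9 CPM in HOTSCRAMBL CBE. In counts these are 30 and 12 against 1292 and 988. It stood at 1.10 and 1.28 CPM in AAVS1 KO and at 0.918 and 0 CPM in HOTSCRAMBL KO. The base-edited libraries stood far above the other 6, and the HOTSCRAMBL KO libraries lay below both AAVS1 KO libraries. The log2 fold change with base editing was 5.76 (SE 0.548, adjusted p = 1.07e-08), and the call was kept under all 17 alternatives, at 5.32 to 6.48. With the knockout it was −1.46 (SE 1.68, adjusted p = 0.692).

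IFI6 (ENSG00000126709, chromosome 1, 27666064 to 27672212) encodes a small membrane protein that protects against some RNA viruses. It stood at 0 and 0.424 CPM in AAVS1 CBE, which are 0 and 12 counts, and at 7.93 and 10.4 CPM in HOTSCRAMBL CBE. It stood at 0.235 and 0.56 CPM in AAVS1 KO and at 5.20 and 1.43 CPM in HOTSCRAMBL KO. Both HOTSCRAMBL groups were above all 4 control libraries. IFI6 gave a log2 fold change of 5.49 (SE 1.00, adjusted p = 3.46e-04) with base editing and 3.00 (SE 1.29, adjusted p = 0.174) with the knockout. Without AAVS1 CBE replicate 1, the library at 0, the base-editing value was 4.38 (adjusted p = 0.0744), and without replicate 2 of that group it was 10.91, a fitted value against a lone control at 0 and no bound.

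XAF1 (ENSG00000132530, chromosome 17, 6755447 to 6775647), which opposes the apoptosis inhibitor XIAP, was called in opposite directions. It stood at 122 and 139 CPM in AAVS1 KO and at 61.5 and 104 CPM in HOTSCRAMBL KO. It stood at 114 and 125 CPM in AAVS1 CBE and at 155 and 207 CPM in HOTSCRAMBL CBE. The 4 control libraries lay between the knockout pair, below, and the base-edited pair, above. For XAF1 the log2 fold change was −0.66 (SE 0.167, adjusted p = 0.0102) with the knockout and 0.58 (SE 0.144, adjusted p = 0.00891) with base editing. The knockout call was lost without either AAVS1 KO library or HOTSCRAMBL KO replicate 1 (−0.76 to −0.46, adjusted p from 0.0835 to 0.277). The base-editing call was lost when any of its own 4 libraries was left out (0.43 to 0.73, adjusted p from 0.0641 to 0.326), and without the term for the labelled line the adjusted p values were 0.0527 and 0.0523.

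IFI44, the neighbour and relative of IFI44L, stood at 0.36 and 1.27 CPM in AAVS1 CBE and at 3.88 and 3.54 CPM in HOTSCRAMBL CBE, with a log2 fold change of 2.24 (SE 0.943, adjusted p = 0.165). It had 78 counts over the AAVS1 KO libraries, at 2.82 and 0.24 CPM, and 0 in HOTSCRAMBL KO. That is 21.6-fold lower at a floor of 3 counts over the group, which is no strict bound either. The edgeR adjusted p was 0.251, while DESeq2 and the earlier edgeR estimator called it lower. Of the 78 counts, 72 came from AAVS1 KO replicate 1, and the fold at that floor was 3.36 without that library and 39.5 without replicate 2. IFI27 was at or below 0.24 CPM in 6 libraries and at 1.33 and 0.945 CPM in HOTSCRAMBL CBE. IFI35 and ISG20 gave 0.55 and −0.28 with base editing.

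**Figure D3:**
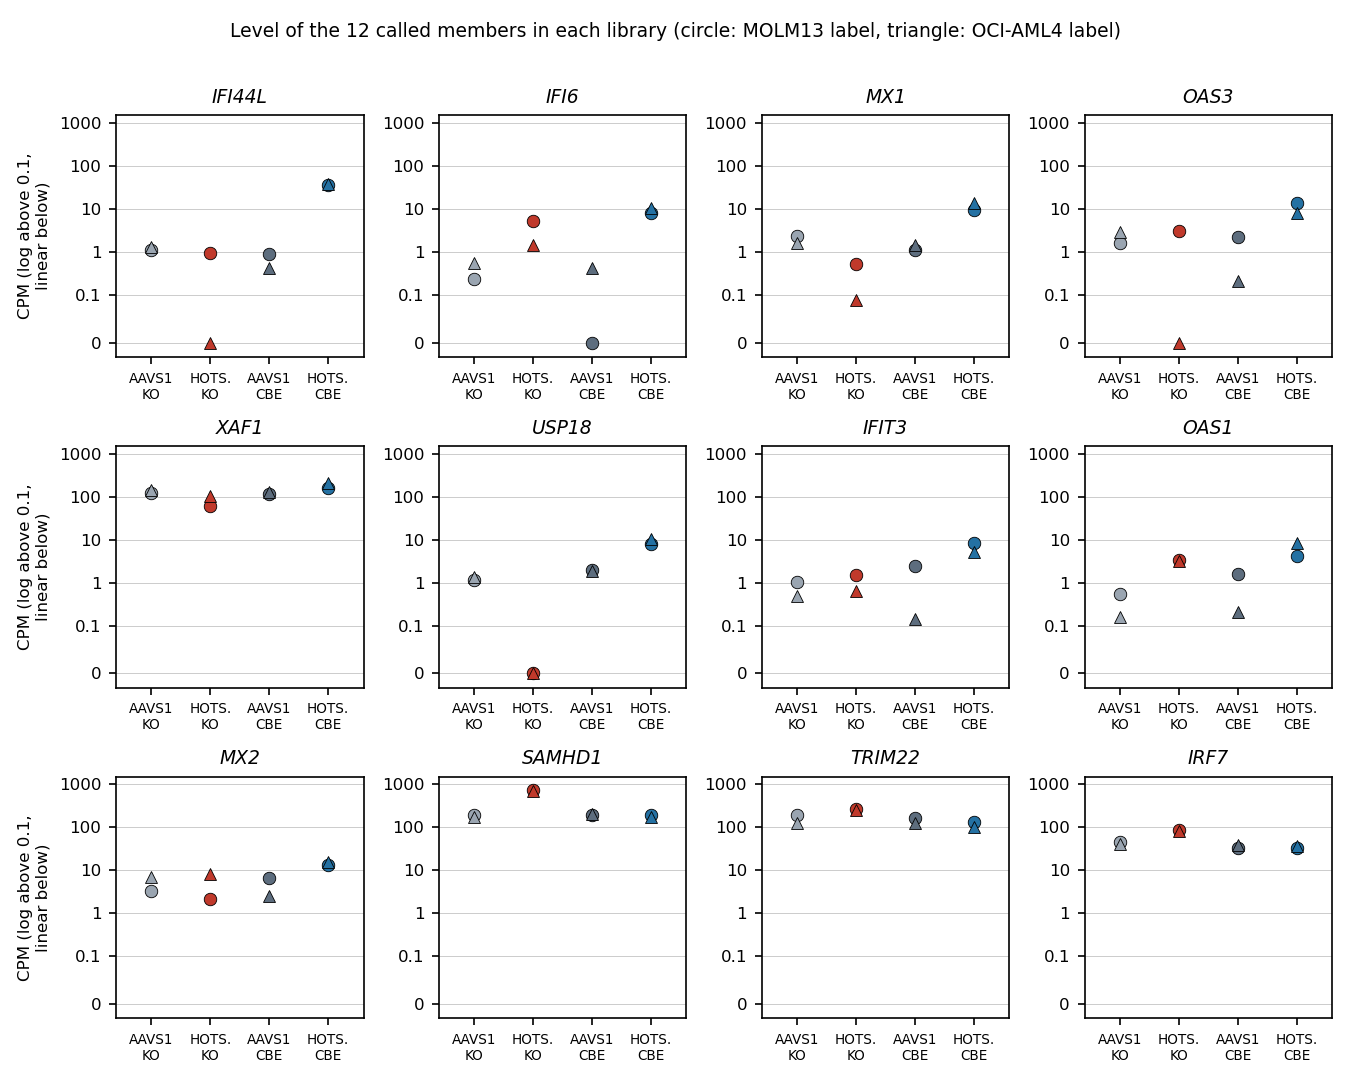
Level in CPM after TMM scaling (vertical axis, logarithmic above 0.1 and linear below) of the 12 members called in any comparison, 1 panel per gene and 1 point per library, with circles for the MOLM13 label and triangles for the OCI-AML4 label in each of the 4 groups. In HOTSCRAMBL CBE both IFI44L libraries stand at 35.8 and 38.9 CPM, above the other 6, whereas SAMHD1, TRIM22 and IRF7 are highest in HOTSCRAMBL KO.

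The difference between the knockout effect and the base-editing effect was itself tested. It passed the threshold for 5 members, 2 with a more positive effect in the knockout and 3 with a more negative one. Over all genes tested, 3.19% were called, 1.74% more positive and 1.45% more negative. The difference in log2 fold change was 2.12 for SAMHD1 (adjusted p = 1.40e-09), 1.10 for TRIM22 (adjusted p = 0.00125), −1.24 for XAF1 (adjusted p = 9.84e-04), −7.22 for IFI44L (adjusted p = 0.0299) and −5.94 for MX1 (adjusted p = 0.0363). The SAMHD1 difference was called under all 16 alternatives. Those of IFI44L and MX1, which rest on few knockout counts, were lost when any of the 8 libraries was left out (−13.87, fitted on a lone library at 0, to −6.09, with adjusted p from 0.0546 to 0.282, and −7.75 to −4.89 with adjusted p from 0.0766 to 0.368). Those of TRIM22 and XAF1 were lost without AAVS1 KO replicate 2 (0.95, adjusted p = 0.0753) and without AAVS1 KO replicate 1 (−1.13, adjusted p = 0.0642). IRF7 did not pass by edgeR, at 0.98 (SE 0.306, adjusted p = 0.087), and nor did IFI6, at −2.50 (SE 2.47, adjusted p = 0.721). DESeq2 called 9 differences, adding IRF7, GBP2, IFI44 and USP18, again without its share over all genes.

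The AAVS1 controls of the 2 editors gave 0 called members and 0% called genes. At an unadjusted p below 0.05 there was 1 of the 41 tested members, ISG15, beside 918 of 24057 genes. Its log2 fold change was −2.65 (adjusted p = 0.991) in AAVS1 KO against AAVS1 CBE. DESeq2, limma-voom and the earlier edgeR estimator also called 0. Between the line labels 0 members were called, beside 0.495% of all genes. An unadjusted p below 0.05 was found for 6 of the 41 tested, beside 2210 of 24057 genes: TRIM22, STAT2, XAF1, BST2, PARP14 and HERC6. Of these, HERC6, TRIM22, STAT2 and PARP14 stood higher with the MOLM13 label, at 1.04, 0.36, 0.35 and 0.31 on the log2 scale, and BST2 and XAF1 with the OCI-AML4 label, at −0.51 and −0.35. DESeq2 called 3 members between the labels, the earlier edgeR estimator 1 and limma-voom 0.

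Upstream of the members, a list of 46 genes of interferon production and signalling was examined, of which 37 were tested. With the knockout 6 rose and 4 fell, and with base editing 3 rose and 3 fell. These are 27.0% and 16.2% of those tested, beside 8.76% and 8.83% of all genes. The median log2 fold changes were 0.19 and 0.07. Of the 4 interferon genes on the list, IFNB1, IFNG and IFNE had 0 counts in all 8 libraries and IFNL1 had 6 counts, all in AAVS1 KO replicate 2.

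TYK2, the receptor kinase that starts the signal, fell with both editors. It stood at 558 and 593 CPM in AAVS1 KO, 456 and 401 CPM in HOTSCRAMBL KO, 629.9 and 572 CPM in AAVS1 CBE, and 296 and 322 CPM in HOTSCRAMBL CBE. Both HOTSCRAMBL groups lay below all 4 control libraries. The log2 fold changes were −0.43 (SE 0.104, adjusted p = 0.00744) with the knockout and −0.96 (SE 0.103, adjusted p = 2.26e-07) with base editing. The knockout call was lost without either AAVS1 KO library or HOTSCRAMBL KO replicate 2 (adjusted p from 0.0803 to 0.261).

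SOCS1, which blocks the receptor kinases, rose in the knockout from 21.9 and 25.1 CPM to 109 and 113 CPM. With base editing it stood at 17.3 and 26.4 CPM in the controls and at 31.9 and 28.8 CPM in HOTSCRAMBL CBE. The knockout pair was far above the other 6 libraries. The log2 fold changes were 2.24 (SE 0.227, adjusted p = 6.99e-08) and 0.51 (SE 0.261, adjusted p = 0.279). PTPN6 (SHP-1), a phosphatase that damps kinase signalling, rose with both editors, by 0.49 (adjusted p = 0.00192) and 0.77 (adjusted p = 5.80e-06), and its knockout call was lost without replicate 2 of AAVS1 KO or of HOTSCRAMBL KO (adjusted p = 0.166 and 0.185) and without the term for the labelled line (0.51, adjusted p = 0.0519). PTPN6 also differed between the line labels, at −0.36 for MOLM13 against OCI-AML4 (adjusted p = 0.0116).

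IRF8, a myeloid transcription factor, rose with the knockout by 0.62 (SE 0.0954, adjusted p = 4.66e-05) and gave −0.02 with base editing. IRF5, which drives inflammatory cytokines, fell with base editing by 0.77 on the log2 scale (SE 0.157, adjusted p = 0.00144). That call was lost without replicate 1 of AAVS1 CBE or of HOTSCRAMBL CBE (adjusted p = 0.0664 and 0.179). STING1, the adaptor of cytosolic DNA sensing, fell with the knockout by 0.81 on the log2 scale (SE 0.180, adjusted p = 0.00358), a call lost when any of its own 4 libraries was left out (adjusted p from 0.0507 to 0.0991).

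**Figure D4:**
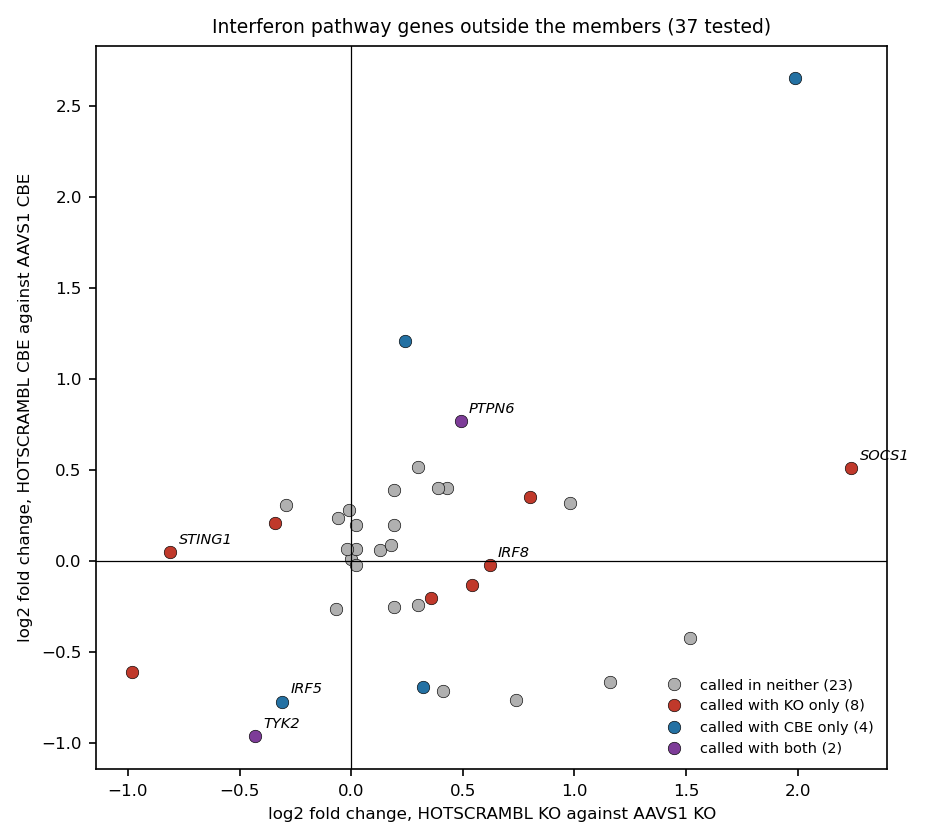
Log2 fold change with base editing (vertical axis) against that with the knockout (horizontal axis) for the 37 tested pathway genes outside the members, 1 point per gene, coloured by the comparison in which it was called, with names for the 6 of smallest p. TYK2 lies below 0 and PTPN6 above 0 on both axes, and SOCS1 lies at 2.24 on the knockout axis.

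The make-up of the pull-down moved in the same comparisons. Of 84 tested cytosolic ribosomal protein genes, 70 were called higher with the knockout and 73 with base editing, and 0 lower with either. Their summed level rose from between 13081 and 14716 CPM in AAVS1 KO to between 41698 and 48050.2 CPM in HOTSCRAMBL KO. With base editing it went from between 12645 and 15034 CPM to between 33651 and 35045 CPM. Of the 13 mitochondrial messenger RNAs, 12 were called higher with the knockout, and 9 higher and 1 lower with base editing. Among 6 tested nuclear-retained RNAs, 1 was higher and 1 lower with the knockout, and 2 were higher and 2 lower with base editing. The part of this shift in the members' values was not tested.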

How the data were processed

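RNA from ChIRP pull-downs was measured in 8 libraries, in 4 groups of 2 taken from the sample titles. The values are raw counts, deposited as whole numbers for each gene with no scaling by the authors. Per the file headers, counting used featureCounts 2.0.6 with the Ensembl 112 annotation of GRCh38, no strand option, no reads placed at several positions and none over several genes. Per the file headers, both reads of a pair were counted singly, and 71.8% to 74.9% of values from 1 to 20 were even. The exon length per gene, used for CPM per kb, is also as deposited. Symbols matched 62541 identifiers (99.05%), 2 records broken over several lines were rejoined, and 0 columns belonged to other samples.

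The tests used the quasi-likelihood F-test of edgeR 4.0.16 (R 4.3.3) with robust estimation, TMM scaling and filterByExpr at a minimum count of 10, which kept 24057 genes. The model had the 4 groups and the labelled line, leaving 3 residual degrees of freedom, with Benjamini-Hochberg adjustment over all genes and a threshold of 0.05. The fit was also run on simulated counts, drawn independently for each library with no difference between the line labels. The outcome is not given here, and such counts cannot show how calls hold where real replicates differ more than simulated ones. Same-numbered libraries share a line label. Their deviations from the group means correlated between groups at 0.00851 to 0.0245 over all tested genes. Above the median level the range was 0.0411 to 0.117. Between the labels 0.495% of all genes were called. The pairing therefore rests on the labels alone, and whether the replicates come from 2 different lines was not tested. Nothing states that libraries are separate cultures, so p-values measure the spread between these libraries. A floor of 3 counts takes each count as a separate event, though both reads of a pair were counted, and takes the other group's count as exact. Folds at this floor are therefore nominal and no strict bounds. All counting statements cover counting error only.

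Alternatives were no block, DESeq2 size factors, no scaling factor, other filters, DESeq2 1.42.0, limma-voom (limma 3.58.1), the 4 libraries of a contrast, each library left out (the lone library of a group is then assumed to vary like the other groups) and, chosen after seeing the data, the earlier quasi-likelihood estimator. The members and lists were chosen with earlier results of these data known. Values in every library are given for members past the threshold and for the 5 of highest level per exon length; of the pathway list, the 6 past the threshold with the smallest p are named. Promoters of up to 5 called members with a GAAANNGAA match are printed, by smallest p, using the window with the most matches.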

Additional observations from a re-analysis of the deposited data

Results flagged for a closer look

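The HOTSCRAMBL effect differed between the editors for 5 members, by the edgeR test of the difference itself. SAMHD1 was higher in the knockout and not called with base editing, a difference of 2.12 on the log2 scale (adjusted p = 1.40e-09). TRIM22 showed the same order, with a difference of 1.10 (adjusted p = 0.00125). XAF1 was lower in the knockout and higher with base editing, a difference of −1.24 (adjusted p = 9.84e-04). IFI44L and MX1 rose with base editing and had few counts in the knockout, with differences of −7.22 (adjusted p = 0.0299) and −5.94 (adjusted p = 0.0363). Groups of 2 libraries are too small to single out a library that stands apart.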

How the results depend on the processing

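With 2 libraries per group, calls depended on few libraries and low counts. The call of SAMHD1 with the knockout and that of IFI44L with base editing were kept under all 17 alternatives. Without the replicate block, that is without the pairing by line label, 3 members were called with the knockout, 7 with base editing, 5 for the difference and 0 between controls, and the median with the knockout was 0.48. The count of members called with the knockout was 16 by DESeq2, 8 by the earlier quasi-likelihood estimator and 2 with the 4 libraries of the contrast. With base editing it was 5 by limma-voom, 5 by the earlier estimator and 2 with the 4 libraries, and the 2 were IFI44L and IFI6. For the difference it was 9 by DESeq2 and 8 by the earlier estimator, and between line labels 3 and 1. The shares of all genes called under these alternatives are not given here, so the counts have no background beside them. Leaving out a library gave 1 to 4 called members with the knockout, 1 to 7 with base editing and 2 to 3 for the difference.

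The members' median log2 fold change with the knockout was 0.54 with DESeq2 size factors, 0.36 with no scaling factor, 0.45 with no filter, 0.40 at a minimum count of 50, 0.38 by limma-voom, 0.36 with the 4 libraries and 0.14 to 0.52 with a library left out. With base editing it was 1.17 with no scaling factor, 1.27 with no filter, 0.61 at a minimum count of 50, 1.36 by limma-voom, 1.35 by the earlier estimator and 1.01 to 1.30 with a library left out. At the higher minimum count 35 members were tested in place of 41. No scaling shifted the median of all genes to −0.17 and −0.15.

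Signs changed only for values that were not called. OAS3 with the knockout was 0.36 without AAVS1 KO replicate 2 and 0.13 without HOTSCRAMBL KO replicate 2, in a range of −8.58, fitted on a lone library at 0, to 0.36 with a library left out. MX2 with the knockout was −0.13 with no scaling factor, −0.05 by DESeq2, −0.09 by limma-voom, −0.00 with the 4 libraries, −0.07 by the earlier estimator, −0.33 without AAVS1 KO replicate 1 and −1.23 without HOTSCRAMBL KO replicate 2, in a range of −1.23 to 0.61. IRF7 with base editing was 0.10 without AAVS1 CBE replicate 2 and 0.07 without HOTSCRAMBL CBE replicate 1 (range −0.16 to 0.10), and BST2 −0.04 without the latter (range −0.04 to 0.82). Where no library or filter explains a change by its construction, the cause was not tested.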
